A study of Mus musculus with 2 samples.

Results

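Cells with almost no transcripts of 6 proliferation genes were examined in a culture of mouse blood progenitors. The 6 genes were Mki67, Top2a, Cdk1, Birc5, Rrm2 and Ube2c, and a cell was selected if their UMIs (unique molecular identifiers, 1 per captured RNA molecule) summed to at most 1. The rule was applied to barcodes with at least 500 detected genes, a mitochondrial share of UMIs of 10% or less and at least 5000 UMIs. It selected 266 of 8160 such cells, which were 128 of 2797 in the control library and 138 of 5363 in the knockdown library. The 2 matrices held 8940 barcodes in all. Because measured counts chose these cells, every difference from the other cells is a description and carries no test.

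Bone marrow of 5 C57BL/6 mice, enriched for stem and progenitor cells, was infected with a GFP-marked retrovirus. It carried either an shRNA that targets no mouse gene (control) or an shRNA against Cxxc5 (knockdown), and infected LSK cells (lineage-negative, Sca-1-positive, Kit-positive marrow cells, rich in stem and multipotent progenitors) were sorted. They grew for 3 days in 20% serum with 10 ng/ml of GM-CSF and of SCF, cytokines that drive myeloid growth and differentiation, and 5 samples were pooled into 1 library per group. No comparison here has a replicate, and in pooled libraries differences between the 5 samples cannot be told apart from differences between cells.

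Dividing cells switch their cell cycle genes on in waves. Genes for DNA synthesis, such as Rrm2, are transcribed as cells enter S phase, and genes for chromosome condensation and mitosis, such as Top2a, Cdk1, Birc5 and Ube2c, peak later, in G2 and M. Many of the late genes are held silent in resting cells by the DREAM complex and activated in cycling cells by the B-MYB and MuvB complex, both of which bind the cell cycle genes homology region, with the core letters TTTGAA, in their promoters. Myeloid cells usually stop dividing as they mature into granulocytes, macrophages or dendritic cells, while stem cells of the marrow can rest between divisions.

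The promoters of the 6 genes were read to show what they share beyond the rule. Among the 250 bases before the RefSeq start (GRCm38.p6), TTTGAA or its complement TTCAAA occurred in 4 of the 6 genes. The activating motif CCAAT (or ATTGG) occurred in 5 of 6. The motifs were searched separately on both strands, and the distance between them was not measured. TTTGAA was present in 32.3% of the 31 G2/M genes with a promoter in the table, in 11.5% of 26 S phase genes, in 13.1% of the 1981 genes compared in both libraries that had one, and in 18.3% of all 27025 promoters. CCAAT was more common, at 74.2%, 57.7%, 42.1% and 37.5% of the same sets. The stretches below are given on the strand of the gene, with the match in capitals. Only 1 match per gene is shown, the one farthest upstream. Mki67, Top2a and Cdk1 each held another match nearer the start, 98, 23 and 15 bases upstream of it. A match is a description of these letters, not a binding site.
Mki67, chr7:135716478-135716507, minus strand: ttagcgccagaaTTTGAAccgccgttttgg
Top2a, chr11:99024351-99024380, minus strand: ctattggtccatTTTGAAgattctcccgcc
Cdk1, chr10:69352966-69352995, minus strand: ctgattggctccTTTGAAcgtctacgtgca
Ube2c, chr2:164769888-164769917, plus strand: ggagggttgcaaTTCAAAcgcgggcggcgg

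The selected cells made up 4.58% of the control cells (95% Clopper-Pearson interval 3.83 to 5.42) and 2.57% of the knockdown cells (2.17 to 3.03). Intervals in this report cover counting error only, not the spread between mice, cultures or cells. The 6 genes gave no UMI at all in 84 of the 128 control cells and in 62 of the 138 knockdown cells. A fixed limit of 1 UMI admits more shallow cells, and the selected cells were shallow, with median depths of 8228 UMIs (control) and 6775 (knockdown), against 18115 and 11135 in the other cells. In the control library they were 17.2% of cells with 5000 to 7500 UMIs, 8.12% with 7500 to 10000, 9.31% with 10000 to 15000 and 0.462% above that. In the knockdown library the same shares were 13.5%, 2.70%, 0.367% and 0.287%. When each cell was thinned to 5000 UMIs before the rule was applied, the rule held for 10.3% of control and 5.67% of knockdown cells.

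**Figure D1:**
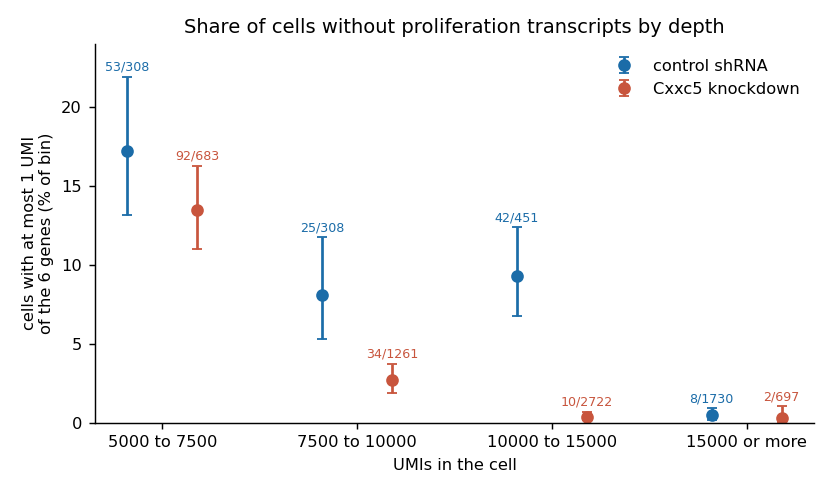
Percent of cells with at most 1 UMI of the 6 proliferation genes (vertical axis) by the cell's UMI count (horizontal axis) in the control (blue) and knockdown (red) library; points are shares with 95% Clopper-Pearson intervals, and numbers give selected cells over all cells of the bin. The share was 17.2% and 13.5% among the shallowest cells and 0.462% and 0.287% among the deepest.

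Measures of cell quality were compared with those of the other cells. The median mitochondrial share was 4.12% (control) and 4.13% (knockdown) in the selected cells and 3.90% and 3.97% in the other cells. After thinning to 5000 UMIs the selected cells showed a median of 1494.5 and 1547.5 genes, against 1755 and 1785. The Scrublet doublet caller marked only 4 control and 5 knockdown cells, too few to have worked, so doublets were kept. The libraries shared 26 cell barcodes, none of them in a selected cell.

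The label of the group, cells lacking proliferation transcripts, was checked on lists that contain none of the 6 genes. Of 37 G2/M genes, 20 reached 50 CPM (UMIs of a gene per 1000000 UMIs of the group) in selected or other cells of a library. All 20 were at least 2-fold lower in the selected control cells and 17 of 20 in the selected knockdown cells, with median log2 ratios of -3.13 and -1.87. The medians over all genes compared were -0.46 and -0.33. The whole G2/M list summed to 601 CPM in selected and 3009 CPM in other control cells, and to 1013 and 3063 CPM in the knockdown library. The S phase list was lower by less: 1448 against 3522 CPM (control) and 2475 against 3684 CPM (knockdown). Of the S phase genes at 50 CPM, 15 of 21 were 2-fold lower in the control library and 4 of 23 in the knockdown library, against 16.7% and 5.9% of all genes. Genes that reached 50 CPM only through the other cells were lower in the selected cells by that limit, so these counts are descriptions. By the sums of the whole lists, which have no such limit, the label described mitotic transcripts, and S phase transcripts in part.

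Counted per cell at equal depth, the selected control cells had a median of 5 S phase UMIs and 2 G2/M UMIs of 5000, and the other control cells 17 and 14. Knockdown medians were 13 and 4 in the selected cells and 18 and 14 in the others. Cells with at most 5 S phase UMIs were 52.3% of the selected control cells and 21.7% of the selected knockdown cells, against 2.25% and 1.11% of the other cells. The limit of the rule was no sharp edge: S phase transcripts stood at 1789 CPM in control cells with 1 UMI of the 6 genes and at 2556 CPM in those with 2. The knockdown values were 2802 and 3715 CPM.

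**Figure D2:**
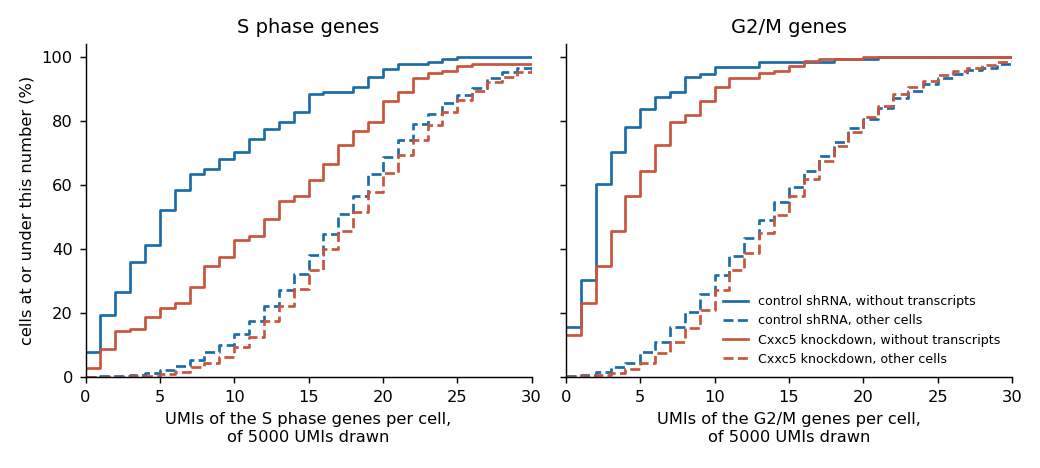
Cumulative percent of cells (vertical axis) by the number of UMIs of S phase genes (left) and G2/M genes (right) per cell after each cell was thinned to 5000 UMIs; solid lines are the selected cells, dashed lines the other cells, blue the control and red the knockdown library. At 5 S phase UMIs the solid lines stand at 52.3% (control) and 21.7% (knockdown), and the dashed lines at 2.25% and 1.11%.

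Values of single cycle genes were as follows. Nusap1, a spindle protein, stood at 3.39 CPM in selected and 61.7 CPM in other control cells, and at 5.02 and 56.1 CPM in the knockdown library (4 and 5 UMIs in the selected cells). Plk1, a mitotic kinase, gave 1 UMI in the selected control cells and 6 in the selected knockdown cells, or 0.848 and 6.03 CPM, against 54.5 and 61.5 CPM in the others. Ccnb1, the mitotic cyclin B1, was at 7.64 against 95.2 CPM and at 14.1 against 107 CPM. These genes were low in both libraries. Dut, which keeps uracil out of DNA, was at 228 against 589 CPM (control) and 401 against 671 CPM (knockdown). Mcm6, a subunit of the replicative helicase, was at 81.5 against 142 CPM and 120 against 146 CPM. Rfc2, a subunit of the clamp loader, was higher in the selected cells, at 119 against 100 CPM and 124 against 93.9 CPM. Tk1, the thymidine kinase of S phase, chosen after its values were seen, was at 10.2 against 79.9 CPM and 34.2 against 86.3 CPM. Nusap1, Plk1 and Ccnb1 are among the 12 lowest genes given further on, so that they were low was fixed by their choice.

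Cyclins and kinases of the G1 phase were read next. Ccne1 and Ccne2, the E-type cyclins that drive entry into S phase, stood at 5.94 CPM each (7 UMIs each) in the selected control cells and at 28.5 and 25.2 CPM in the others. Among knockdown cells Ccne1 was at 13.1 against 30.4 CPM and Ccne2 at 16.1 against 22.3 CPM. The D-type cyclins that respond to growth factors were closer: Ccnd2 was at 181 against 172 CPM (control) and 214 against 234 CPM (knockdown), and Ccnd3 at 171 against 176 CPM and 130 against 165 CPM. The kinase gene Cdk6 was at 271 against 230 CPM and 255 against 243 CPM, and Cdk4 at 218 against 359 CPM and 311 against 366 CPM. None of the 5 genes of this list that reached 50 CPM differed 2-fold in either library.

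Among 21 CDK inhibitors and other antiproliferative genes, 5 reached 50 CPM in the control library and 5 in the knockdown library. Btg1 (chromosome 10, 96617006 to 96622809), which encodes an antiproliferative protein abundant in resting blood cells, stood at 187 CPM in selected and 42.2 CPM in other control cells, and at 144 and 35.0 CPM in the knockdown library. Its log2 ratios were 2.15 (1.94 to 2.35) and 2.04 (1.78 to 2.28). Cdkn1a (chromosome 17, 29090976 to 29100727), the inhibitor p21, was at 119 against 30.5 CPM and at 120 against 26.7 CPM, log2 ratios of 1.96 (1.70 to 2.21) and 2.16 (1.88 to 2.43). These 2 were the 2-fold higher genes among the 5 in each library. Both reached 50 CPM only through the selected cells, so that they were higher followed from that limit. Klf2, a transcription factor of resting lymphocytes, stayed under 50 CPM, at 45.8 against 32.6 CPM and 34.2 against 15.6 CPM. Other genes of the list were level or lower: Cdkn2d, the inhibitor p19, was at 39.9 against 61.7 CPM and at 33.2 against 58.8 CPM, and Cebpa at 83.2 against 92.0 CPM and 91.5 against 96.3 CPM. The UMIs of Btg1 and Cdkn1a were spread unevenly over cells, and the 10 richest cells held 40.5% and 46.2% of the Btg1 UMIs and 58.6% and 63.9% of the Cdkn1a UMIs of the selected cells.

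Across all genes, 126 of 2669 (4.72%) were at least 2-fold higher and 446 (16.7%) at least 2-fold lower in the selected control cells. In the knockdown library 73 of 2646 (2.76%) were higher and 156 (5.9%) lower. Ribosomal protein genes took 36.4% of all UMIs in the selected and 27.8% in the other control cells, and 35.2% and 27.6% in the knockdown library, and the median log2 ratio over all genes was the -0.46 and -0.33 given above. The part of the ribosomal protein genes in those medians was not tested. Relative to that median the balance turned, with 263 genes (9.85%) higher and 111 (4.16%) lower in the control and 127 (4.8%) higher and 54 (2.04%) lower in the knockdown library. Counted over both libraries, 2313 of 2531 genes (91.4%) had a ratio of the same sign, 62 of 2531 genes (2.45%) were 2-fold higher in each, and 118 (4.66%) 2-fold lower in each.

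**Figure D3:**
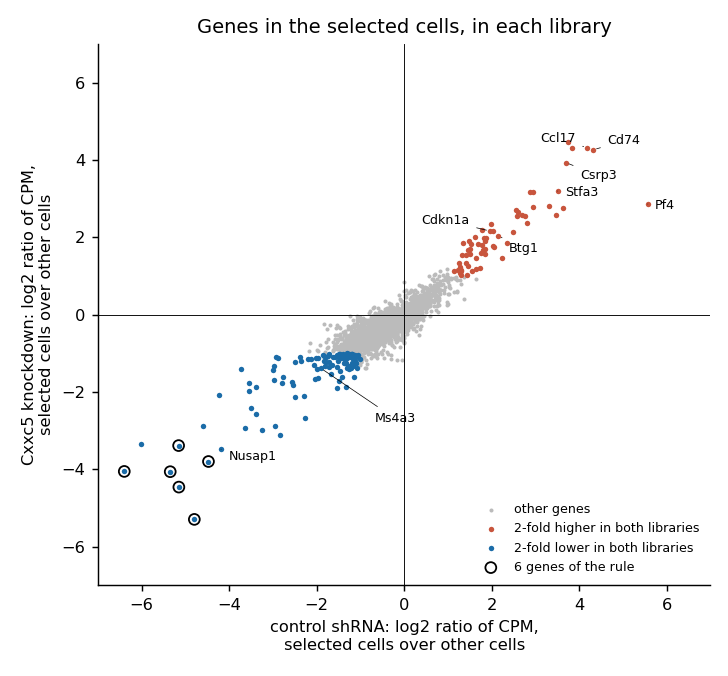
Log2 ratio of CPM in the selected cells over the other cells in the control library (horizontal axis) and in the knockdown library (vertical axis); each point is a gene of at least 50 CPM in each library with UMIs in all 4 groups, red and blue mark genes 2-fold higher or lower in both, and circles the 6 genes of the rule. 62 genes were 2-fold higher and 118 2-fold lower in both libraries, counting those with no UMI in a group, which are not drawn.

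The 12 highest genes, ranked by the smaller of the 2 libraries' ratios, were Cd74, Ccl17, H2-Aa, H2-Eb1, Csrp3, Stfa3, H2-Ab1, AA467197, Pf4, Ifitm6, Lsp1 and Ctla2a. The dendritic cell marker list held 5 of them (Cd74, Ccl17, H2-Aa, H2-Eb1 and H2-Ab1). Cd74, the invariant chain of MHC class II, was at 1342 against 67.3 CPM (control) and 454 against 23.7 CPM (knockdown). H2-Aa, an MHC class II chain, was at 320 against 22.3 CPM and 160 against 8.01 CPM. Stfa3, a stefin protease inhibitor of neutrophils, was at 399 against 35.0 CPM and 163 against 17.8 CPM. Pf4, a platelet chemokine, was at 529 against 11.2 CPM and 153 against 21.0 CPM. The 12 lowest genes were the 6 of the rule with Nusap1, Plk1, Aurka, Ccnb1, Sgol1 and Cenpe, which act in mitosis.

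To place the selected cells by lineage, all 8160 cells were clustered with the 6 genes and the S phase and G2/M lists left out. Cluster 4 held the most of them, 60 of 128 (46.9%, 38.0 to 55.9) in the control and 55 of 138 (39.9%, 31.6 to 48.5) in the knockdown library, but only 6.03% and 3.92% of the other cells. Read the other way, 27.1% of the control and 21.2% of the knockdown cells of cluster 4 were selected. The dendritic cell-like cluster held 16 (12.5%) and 9 (6.52%) of the selected cells, against 2.85% and 0.976% of the others. The neutrophil-like cluster held 17 (13.3%) and 13 (9.42%), near its 13.2% and 8.84% of the others. The granulocyte-monocyte progenitor-like cluster held 7 (5.47%) and 6 (4.35%), far below its 22.7% and 21.8%. The monocyte-macrophage-like cluster held 3 (2.34%) and 11 (7.97%), against 14.4% and 13.7%. Among the clusters that took no cell type name, cluster 2 held 10 and 23 selected cells, cluster 6 held 5 and 16, cluster 3 held 6 and 0, and cluster 5 held 0 and 4. Of the 13 mast cell-like cells, 4 of 8 were selected in the control library and 0 of 5 in the knockdown library, where 0 of 138 allows a share of up to 2.17% by a limit of 3 cells (2.64% by the Clopper-Pearson interval).

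**Figure D4:**
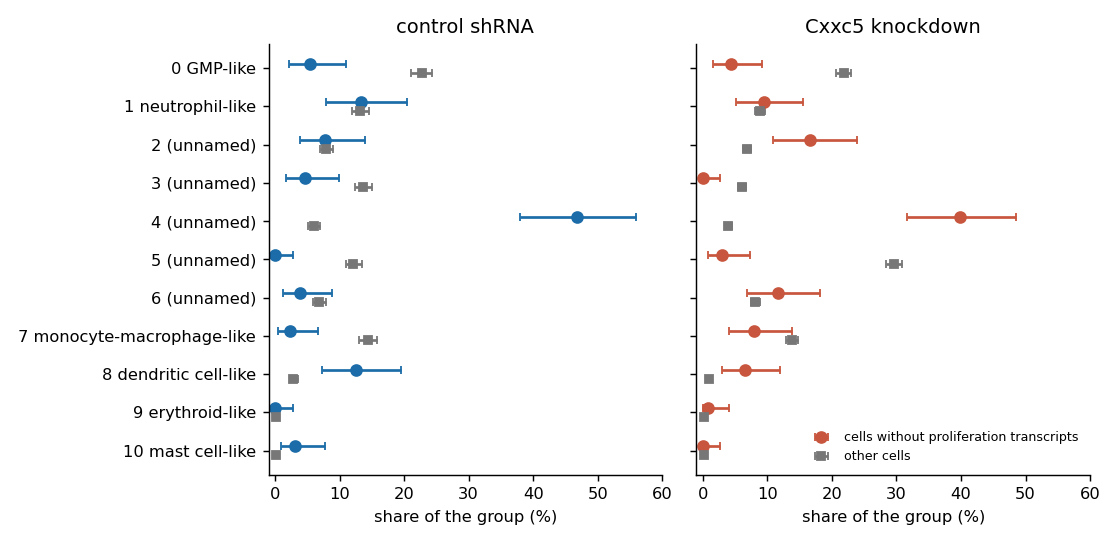
Percent of the selected cells (circles) and of the other cells (squares) that fell in each cluster, with 95% Clopper-Pearson intervals, in the control (left) and knockdown (right) library; GMP stands for granulocyte-monocyte progenitor. Cluster 4 held 46.9% and 39.9% of the selected cells against 6.03% and 3.92% of the others.

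Depth differed between clusters as well. The median cell of cluster 4 had 10905 (control) and 7234.5 (knockdown) UMIs, 0.618 and 0.655 times the library's median, and the median dendritic cell-like cell 14416 and 10263. After thinning to 5000 UMIs the rule held for 39.8% of control and 26.2% of knockdown cells of cluster 4 and for 34.8% and 21.7% of the dendritic cell-like cells. It held for 7.84% and 3.58% of the neutrophil-like and 5.06% and 3.49% of the granulocyte-monocyte progenitor-like cells. Cluster 4 and the dendritic cell-like cluster thus stood above those 2 named clusters at equal depth as well. The shares were 13.1% and 10.8% in cluster 2 and 11.8% and 10.5% in cluster 6. Of the few mast cell-like cells the rule then held for 5 of 8 in the control and 0 of 5 in the knockdown library. With a higher clustering resolution, all genes allowed or each library clustered alone, the cluster most like cluster 4 held between 28.3% and 61.6% of the selected cells, so the size of this share rests on the clustering.

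Cluster 4 took no cell type name because its leading genes came from several lists. They included Prg2, Pf4, Ctla2a, Ikzf2, Cpa3, Cd34 and Sox4, which mark eosinophils, platelets, mast cells and stem or progenitor cells in turn. In the selected cells as a whole, Cd34, a surface protein of stem and progenitor cells, stood at 119 CPM against 41.5 CPM in the other control cells and at 124 against 35.0 CPM in the knockdown library. Sox4, a transcription factor of progenitors, was at 94.2 against 23.2 CPM and 96.5 against 28.0 CPM. Most of these UMIs lay in cluster 4: 115 of 140 and 86 of 123 for Cd34, and 92 of 111 and 61 of 96 for Sox4. Within cluster 4 Cd34 stood at 213 CPM in the selected against 261 CPM in the other cells of the control library and at 253 against 258 CPM in the knockdown library. Of the 13 stem and multipotent progenitor genes, 3 (control) and 2 (knockdown) reached 50 CPM. All of these were 2-fold higher in the selected cells, against 4.72% and 2.76% of all genes. Cd34 and Sox4 reached 50 CPM only through the selected cells, so that they were higher followed from that limit. The count is no sign of a raised list.

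Some high genes had most of their UMIs in a handful of cells of cluster 4. Of the 624 Pf4 UMIs in selected control cells, 623 lay in 8 cells of cluster 4 and 317 in the richest of them. Among selected knockdown cells 141 of 152 Pf4 UMIs lay in 1 cell. Prg2, the eosinophil major basic protein, gave 307 UMIs in the selected control cells, all in 1 cell, and 2 UMIs in the selected knockdown cells. Prss34, a basophil protease, gave 149 UMIs, 122 of them in 5 cells of cluster 4 and 105 in the richest. A high sum for these genes describes those cells and not the group.

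Other genes of the lists differed within cluster 4. Lyz2, the lysozyme of neutrophils and macrophages, was at 766 against 227 CPM in the control library (log2 ratio 1.75, 1.56 to 1.95) and 839 against 157 CPM in the knockdown library (2.42, 2.17 to 2.66). Ly6a, the antigen Sca-1, was at 87.2 against 28.9 CPM and 85.3 against 12.6 CPM. Gata2, a transcription factor of stem and mast cells, was lower, at 51.9 against 94.3 CPM and 35.3 against 69.8 CPM. Of the Lyz2 UMIs of selected cells in cluster 4, 124 of 413 (control) and 158 of 285 (knockdown) lay in the richest cell.

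Antigen presentation genes were high mostly, but not only, through the dendritic cell-like cells. MHC class II presentation genes summed to 2332 CPM in selected and 206 CPM in other control cells, and to 1005 and 102 CPM in knockdown cells. The 5 genes of this list at 50 CPM were each 2-fold higher in both libraries, where 4.72% and 2.76% of all genes were. At least H2-Aa in both libraries and Cd74, H2-Ab1 and H2-Eb1 in the knockdown library reached 50 CPM only through the selected cells. That these were higher followed from that limit, so the counts of this list are descriptions. The dendritic cell-like cluster held 369 of 377 (control) and 144 of 159 (knockdown) H2-Aa UMIs of the selected cells. It held 481 of 484 and 205 of 205 UMIs of Ccl17, a chemokine that attracts T cells. Within cluster 4 the MHC class II list summed to 317 CPM in selected and 201 CPM in other control cells. The knockdown values were 468 and 157 CPM, and 24 of the 51 Cd74 UMIs of those selected cells lay in the richest cell. Selected cells were also compared with the other dendritic cell-like cells alone: Cd74 stood at 9141 against 2435 CPM (control) and 5357 against 2376 CPM (knockdown). Ccl17 was at 2850 against 820.0 CPM and 2746 against 1033 CPM, but 1 cell held 206 of the 481 control UMIs and 1 cell 108 of the 205 knockdown UMIs. Of the 1543 control Cd74 UMIs 1 cell held 523. Elane, neutrophil elastase and a gene of granulocyte precursors, was lower, at 160 against 575 CPM and 214 against 926 CPM. All 7 MHC class II presentation genes with a promoter in the table held CCAAT, which 42.1% of the compared genes held. These are the core letters of the Y box of such promoters, but whether a match was a Y box was not tested.

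A few of these cells carried genes of mature, migrating dendritic cells. Ccl22 gave 314 UMIs in 3 selected control cells and 16 in 1 selected knockdown cell. Fscn1, an actin-bundling protein of mature dendritic cells, gave 63 UMIs in 3 control and 7 in 2 knockdown cells. Ccr7, the receptor that guides such cells to lymph nodes, gave 42 UMIs in 3 control cells of this cluster. Fscn1 and Ccr7 were chosen after their values were seen. Ccl5 gave 325 UMIs in 2 control cells, 289 of them in 1. All 9 selected knockdown cells of this cluster held UMIs of H2-Aa, and 1 of them held 619 of the cluster's 644 UMIs of the neutrophil gene S100a8. Whether it was a doublet was not tested.

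Of 13 secondary and tertiary granule genes compared within the neutrophil-like cluster, 4 were 2-fold higher in the selected cells of each library, where 173 of 2211 (control) and 135 of 2203 (knockdown) of all genes were. Ltf, lactoferrin of the secondary granules, was at 4253 CPM in selected and 904 CPM in other neutrophil-like cells of the control library, and at 8035 and 1297 CPM in the knockdown library (log2 ratios of 2.23, 2.11 to 2.35, and 2.63, 2.51 to 2.75). Lyz2 was at 7821 against 1659 CPM and 7360 against 1284 CPM. Elane, a primary granule gene made early in this lineage, was at 1628 against 9126 CPM and 2962 against 10169 CPM (log2 ratios of -2.49, -2.67 to -2.31, and -1.78, -1.97 to -1.60). Ms4a3, a gene of granulocyte-monocyte progenitors that slows the cycle, was at 456 against 2067 CPM and 987 against 2434 CPM. The cluster held 653 of 655 and 643 of 648 Ltf UMIs of all selected cells. Secondary and tertiary granule genes as a whole summed to 9269 against 5003 CPM over all control cells and to 7874 against 3892 CPM over all knockdown cells, while primary granule genes summed to 8992 against 20930 CPM and 12231 against 22153 CPM.

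In the monocyte-macrophage-like cluster only the knockdown library held enough selected cells, 11, for levels to be given. Lyz2 stood at 2887 against 404 CPM (log2 ratio 2.84, 2.65 to 3.02), Cdkn1a at 278 against 55.4 CPM and Btg1 at 122 against 33.4 CPM. Of the 260 Lyz2 UMIs, 131 lay in 1 cell, and of the 25 Cdkn1a UMIs, found in 5 of the 11 cells, 12 lay in 1 cell. In cluster 6, led by Tcrg-C1, Prss34, Gata2 and Cpa3, the 16 selected knockdown cells had Csrp3, a LIM-domain protein best known from muscle, at 461 against 36.6 CPM. Cpa3, the mast cell carboxypeptidase, was at 429 against 107 CPM and Gata2 at 207 against 76.4 CPM. Both are on the mast cell marker list.

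Some differences recurred within clusters. Selected cells were compared with the other cells of the same cluster and library wherever at least 9 were selected, which gave 10 comparisons in clusters 1, 2, 4, 6, 7 and 8. Btg1 was higher in 10 of 10, with log2 ratios between 0.30 and 2.61 and 8 intervals above 0. Ypel3 (185 against 31.1 CPM in control and 119 against 20.1 CPM in knockdown cells), a small growth-suppressing protein, was higher in 10 of 10, between 0.21 and 3.67, with 9 intervals above 0. Hist1h2bc, a histone H2B gene at 81.5 against 13.5 CPM and 75.4 against 12 CPM, was higher in 10 of 10, between 0.33 and 2.73, with 7 intervals above 0. Ypel3 and Hist1h2bc were chosen after their values were seen. Cdkn1a was higher in 8 of 10, between -0.30 and 2.33, with 5 intervals above 0 and none below.

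B2m, the light chain of MHC class I, was higher in 10 of 10 comparisons, between 0.18 and 1.62, and Eef1a1, a translation elongation factor whose mRNA is regulated with those of ribosomal proteins, in 10 of 10, between 0.08 and 0.58. Over all cells Eef1a1 stood at 9675 against 4745 CPM (control) and 8966 against 4751 CPM (knockdown). Hmgb2, a chromatin protein abundant in dividing cells, was lower in 10 of 10, between -3.36 and -0.40, and so were Ptma (-2.35 to -0.15) and Ran (-2.56 to -0.21). Lyz2 was higher in 8 of 10, with ratios of -0.04 and -0.27 in the dendritic cell-like cluster. Elane was lower in 8 of 10 and not in cluster 2 of the knockdown library (0.23) or cluster 4 of the control library (0.44). Summed lists were lower in 10 of 10 for S phase (-2.32 to -0.24), G2/M (-3.10 to -1.14), nucleolar (-1.64 to -0.025) and unfolded protein response genes (-0.88 to -0.11). The median over all genes in these comparisons lay between -0.45 and -0.045. The nucleolar -0.025, in cluster 4 of the knockdown library, lay above the median of that comparison, -0.045. The unfolded protein response sum of neutrophil-like knockdown cells, 2062 against 2599 CPM, also lay above the median of its comparison, -0.363. Higher in 10 of 10 were the sums of MHC class II presentation (0.24 to 1.58), chemokine and inflammatory feedback (0.03 to 2.31) and immediate early genes (0.22 to 1.48). These sums carry no interval. No MHC class II presentation gene reached 50 CPM in the neutrophil-like cluster of either library, or in cluster 2 or 6 of the knockdown library. The 0.24 came from neutrophil-like knockdown cells, at 49.98 against 42.45 CPM, where the selected cells held 80027 UMIs of all genes. In those clusters the MHC class II sums rest on few UMIs, and their sign alone does not show a raised list.

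**Figure D5:**
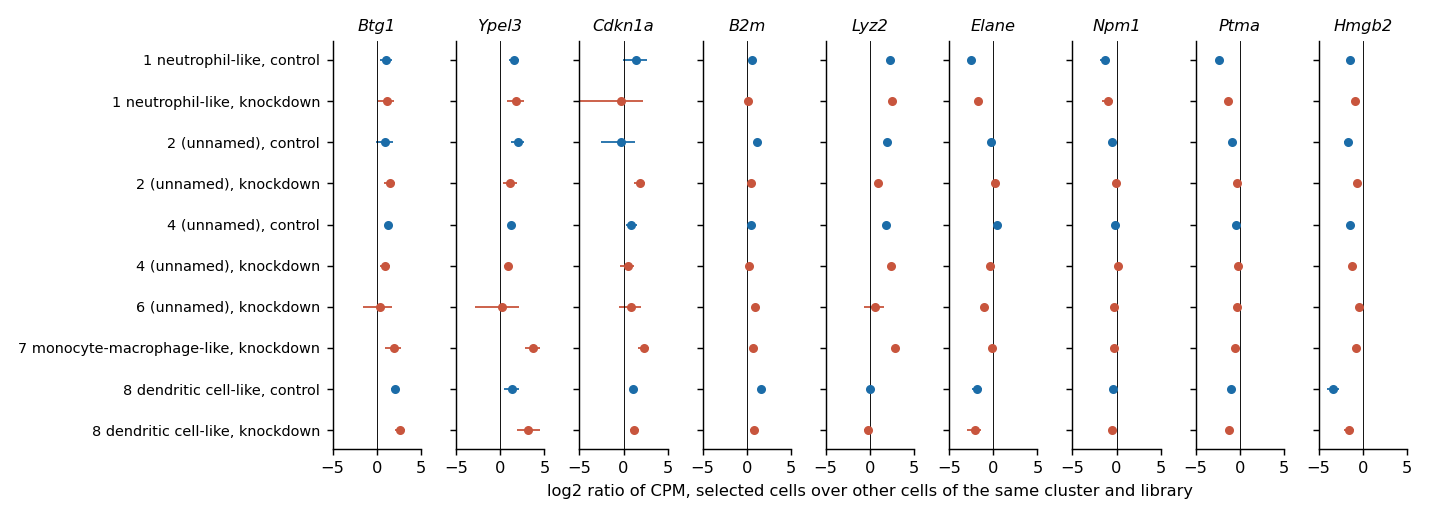
Log2 ratio of CPM (horizontal axes) in the selected cells over the other cells of the same cluster and library, for 9 genes (columns) in the 10 cluster and library combinations with at least 9 selected cells (rows); points are ratios with exact 95% intervals, blue for control and red for knockdown. Btg1, Ypel3 and B2m lie to the right of 0 in all 10 rows, and Ptma and Hmgb2 to the left in all 10.

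Lists of growth genes lay below the median gene. Nucleolar ribosome biogenesis genes had median log2 ratios of -0.94 over 18 genes in the control and -0.51 over 19 in the knockdown library, MYC and nucleotide synthesis genes -0.99 and -0.52 over 11 each, and unfolded protein response genes -1.11 over 11 and -0.76 over 10. The medians over all genes were -0.46 and -0.33. Ncl, nucleolin, was at 487 against 1098 CPM and 728 against 1235 CPM. Hspa5, the chaperone BiP of the endoplasmic reticulum, was at 225 against 552 CPM and 367 against 672 CPM. Tfrc, the transferrin receptor by which growing cells take up iron, was at 24.6 against 108 CPM and 60.3 against 133 CPM. Tfrc in the control library reached 50 CPM only through the other cells, so that it was lower there followed from that limit. In these lists 8 of 18 nucleolar genes were 2-fold lower in the control and 4 of 19 in the knockdown library, against 16.7% and 5.9% of all genes, and none was 2-fold higher. Any gene that passed only through the other cells was lower by the same limit, so these counts are descriptions.

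The BCL2 family genes that differed 2-fold were higher, 3 of 8 in the control and 2 of 6 in the knockdown library, where 4.72% and 2.76% of all genes were. The whole family was near level, with sums of 877 against 823 CPM and 842 against 834 CPM. Bcl2, an inhibitor of cell death, was at 75.5 against 28.4 CPM (control) and 92.5 against 31.5 CPM (knockdown). It reached 50 CPM only through the selected cells, so that it was higher followed from that limit. Bax, which promotes cell death, was at 272 against 415 CPM and 348 against 445 CPM. Against other cells weighted to the same clusters, the log2 Bcl2 ratio in the control library was -0.085. Among p53 target genes, which include Cdkn1a, 1 of 4 was 2-fold higher in each library: Mdm2 was at 28.8 against 29.8 CPM and 39.2 against 29.3 CPM, and Ccng1 at 52.6 against 51.0 CPM and 92.5 against 59.5 CPM. Csf2rb, the shared chain of the GM-CSF receptor, was at 168 against 82.1 CPM and 113 against 68.1 CPM. None of the 10 genes of the lymphoid list reached 50 CPM, and the list summed to 17.8 against 14.6 CPM and 15.1 against 14.7 CPM. Of the stromal and endothelial list, Col1a1 and Col1a2 gave no UMI in the selected cells.

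The counts of genes depended on the cluster make-up. When the other cells were weighted to the cluster shares of the selected cells, 54 genes were 2-fold higher and 126 lower in the control library, and 30 and 55 in the knockdown library. Of these, 53 and 117, and 27 and 50, were among the genes counted without weights. Between cells of 5000 to 10000 UMIs only, 130 genes were higher and 387 lower in the control and 56 and 100 in the knockdown library.

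Cxxc5 itself gave 46 UMIs in the selected control cells and 4 in the selected knockdown cells, or 39.0 and 4.02 CPM (log2 ratio -3.28, -5.21 to -1.83). It stood at 8.28 and 1.08 CPM in the other cells. The transcript was thus lower in the knockdown library in both groups. In the control library it was higher in the selected cells, and 34 of the 46 UMIs lay in cluster 4. Without clusters 4, 8 and 10, an alternative chosen after seeing the data, the selected control cells held 1 Cxxc5 UMI, too few for a ratio to be read.

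Between the libraries, 38 of 2338 genes (1.63%) were at least 2-fold higher and 44 (1.88%) at least 2-fold lower in selected knockdown cells than in selected control cells. The same genes in the other cells gave 3 (0.128%) and 16 (0.684%). The genes were chosen by their level in the selected cells, whose sums rest on 1178570 (control) and 995044 (knockdown) UMIs. The other cells gave 47591371 and 59527226 UMIs. Counting error and single rich cells thus weigh more in the selected cells, and these counts do not show a larger knockdown difference there. The median log2 ratio in the selected cells was 0.13, and relative to it 17 genes were higher and 67 lower. The 6 highest were 2810417H13Rik, Nasp, Psmd2, Ahsa1, Hnrnph1 and Hspd1. 2810417H13Rik, a PCNA-binding protein of DNA replication, was at 24.6 CPM in control and 131 CPM in knockdown selected cells (log2 ratio 2.41, 1.82 to 3.04; 0.09 in the other cells). Nasp, a histone chaperone, was at 40.7 and 106 CPM (1.37, 0.87 to 1.90; 0.09 in the other cells). Ahsa1, a co-chaperone of Hsp90, was at 73.8 and 160 CPM, and Hspd1, the mitochondrial chaperonin, at 157 and 336 CPM.

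Cycle lists were compared in the same way. Over the 18 S phase genes at 50 CPM in the selected cells the median ratio of knockdown to control was 0.75 on the log2 scale, with 4 genes 2-fold higher and none 2-fold lower, against 0.03 in the other cells. Over 5 G2/M genes it was 0.41, with 1 gene 2-fold higher, against -0.01 in the other cells. The median over all genes in the selected cells was 0.13. The libraries differed in depth. At 5000 to 7500 UMIs the S phase sum was 1445 CPM over 53 selected control cells and 2464 CPM over 92 selected knockdown cells, at 7500 to 10000 UMIs 1481 CPM over 25 and 2959 CPM over 34, and at 10000 UMIs or more 1439 CPM over 50 and 1578 CPM over 12. Among cells with 0 UMIs of the 6 genes it was 1274 and 2031 CPM. With the rule applied after thinning to 5000 UMIs, 1 gene was 2-fold higher and 24 lower, so the count on the higher side rests on the unthinned rule.

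The lowest genes between the libraries came from few cells. Tpsb2 and Mcpt2, mast cell proteases, gave 228 and 215 UMIs in selected control cells, each in 2 mast cell-like cells, and none in selected knockdown cells, which makes them at least 64.2-fold and 60.5-fold lower against a floor of 3 UMIs in the group. Prss34 gave 149 and 0 UMIs, at least 41.9-fold lower. Prg2 (307 and 2 UMIs), Ccl5 (326 and 6) and Ccl22 (314 and 16) completed the 6, and each had most of its control UMIs in 1 cell. Whether such cells differ in number between the groups was not tested, since each group is 1 library.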

How the data were processed

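The authors deposited a matrix of UMI counts for each library (28692 genes by cell barcodes) from the 10x Genomics 3' assay. The submitters' processing notes name Cell Ranger 2.1.1 and mm10, and the gene annotation used is not given in the sources used here. Counts were summed over cells and given as CPM. Ratios carry 95% exact binomial intervals on how UMIs divided between the groups, which leave out the spread between cells and are too narrow where few cells hold most UMIs. Genes of at least 50 CPM in either group were compared, and a 2-fold difference was counted. A gene that reached 50 CPM in 1 group only was higher there, and lower in the other group, by that limit. Counts of higher or lower list members are therefore descriptions. With 1 library per group no p-value was computed. Cells were clustered with scanpy 1.11.5 (10000 counts per cell, 2000 variable genes, 30 components, 15 neighbours, Leiden 0.6). A cluster took a marker list's name if most markers among its top 10 genes were from that list and at least 3 of its markers reached 20 CPM and a 1.5-fold excess. Thinning drew 5000 UMIs per cell without replacement. Ratios and intervals were tested on simulated data. Gene coordinates are from GENCODE M21 (GRCm38) and promoters from RefSeq.

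The cells, the gene lists and the naming rule were chosen with earlier results of these data known. Genes named are the 12 highest and 12 lowest ratios common to both libraries, the 6 highest and 6 lowest between libraries (at least 100 CPM), list members with the highest levels and leading genes of clusters. Cell names rebuilt from markers may differ from those of the study. Alternatives were the UMI limits, thinning, depth, CPM minimum, scaling, weighting and clustering.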

Additional observations from a re-analysis of the deposited data

Results flagged for a closer look

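For 2 genes, selected cells lay above the other cells in 1 library and below them in the other, and this difference was not tested. Cd63, a lysosomal membrane protein, had log2 ratios of 0.25 (control) and -0.15 (knockdown). Mcpt8, a basophil protease, had log2 ratios of -0.30 (control) and 0.28 (knockdown), and the 10 richest cells held 73.1% and 51.1% of its UMIs.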

How the results depend on the processing

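The selected share (control, knockdown) became 3.0% and 1.16% with 0 UMIs allowed, 6.51% and 3.95% with 2, 10.3% and 5.67% after thinning, 2.29% and 0.351% at 10000 UMIs or more, and 1.94% and 1.47% without clusters 4, 8 and 10 (chosen after seeing the data). For genes higher and lower than in other cells, thinning gave 39 and 33 (control) and 28 and 18 (knockdown), a 20 CPM minimum 308 and 809, and 174 and 362, a 100 CPM minimum 67 and 256, and 38 and 64, scaling by the median ratio 263 and 111, and 127 and 54, and cluster weights 54 and 126, and 30 and 55. A limit of 2 UMIs left 296 (control) and 62 (knockdown) lower genes. In the knockdown library, 0 UMIs gave 361 lower, 10000 UMIs or more, with 12 selected cells, 122 higher and 441 lower, cells of 5000 to 10000 UMIs 100 lower, and leaving out clusters 4, 8 and 10 gave 88 lower. Between libraries, higher and lower counts were 62 and 74 (0 UMIs), 1 and 24 (thinning), 245 and 163 (10000 UMIs), 176 and 92 (without clusters 4, 8 and 10), 162 and 148 (20 CPM), 14 and 18 (100 CPM), 17 and 67 (median scaling), 106 and 76 (5000 to 10000 UMIs) and 20 and 27 (cluster weights). Removing high Scrublet scores changed no count or share beyond its counting interval or by over 1.5 times. Of lineage shares, thinning gave 6.97% (monocyte-macrophage-like, control), 13.2% (granulocyte-monocyte progenitor-like, knockdown) and 30.7% and 22.4% (cluster 4). At 10000 UMIs or more they were 2.0% (granulocyte-monocyte progenitor-like, control) and, in the knockdown library, 0% (neutrophil-like), 16.7% (monocyte-macrophage-like and dendritic cell-like) and 8.33% (cluster 4). With all genes in the clustering they were 25.0% and 23.2% (dendritic cell-like), 37.5% (cluster 4, control) and 12.3% (granulocyte-monocyte progenitor-like, knockdown). Leiden resolution 1.0 gave 17.2% and 21.7% (monocyte-macrophage-like), 1.56% and 11.6% (granulocyte-monocyte progenitor-like) and 34.4% and 28.3% (cluster 4). Libraries clustered alone gave 29.7% (dendritic cell-like, control), 13.8% (granulocyte-monocyte progenitor-like, knockdown) and 61.6% (cluster 4, knockdown), with no monocyte-macrophage-like cluster named in the control. Among genes and lists that differed 2-fold at 50 CPM or more, some log2 ratios changed sign. In the knockdown library these were Camp (-0.066 after thinning, -2.16 at 10000 UMIs), Bcl2 (-0.51), Ltf (-1.06) and the megakaryocyte list (-1.74) at 10000 UMIs, and Pf4 (-1.31, from 3 UMIs in selected cells) without clusters 4, 8 and 10. In the control library these were Car2 (-0.012, from 8 UMIs), Cd34 (-0.34, from 11), H2-Ab1 (-0.97, from 1), Hbb-bt (-0.80, from 0 set to the floor of 3), Pf4 (-1.67, from 1) and the erythroid list (-0.27) without those clusters, and Cd34 (-0.30), Bcl2 (-0.085) and Mcpt2 (-0.051) with cluster weights. The cause was not tested, except that stricter limits leave fewer cells or genes. No paired analysis was possible because each group is 1 library. Depth limits the low genes: a gene with 3 UMIs stands at 2.55 CPM in the selected control and 3.01 CPM in the selected knockdown cells.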

Other observations

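Further gene lists were counted in the selected cells against the other cells, to be read beside the 4.72% and 2.76% of all genes that were 2-fold higher. Of the actin cytoskeleton and adhesion genes, 7 of 22 were 2-fold higher in the control and 6 of 22 in the knockdown library, and none was 2-fold lower. Lsp1, a leukocyte actin-binding protein of that list, stood at 206 against 26.9 CPM and 105 against 15.2 CPM. It reached 50 CPM only through the selected cells. Of the lysosomal genes, 3 of 14 and 1 of 12 were 2-fold higher. Of the 6 NADPH oxidase genes none differed 2-fold. Cybb, its membrane subunit, was at 141 against 79.3 CPM and 92.5 against 52.3 CPM. Among 12 glycolysis genes, 3 were 2-fold lower in the control and none in the knockdown library, with Ldha, lactate dehydrogenase, at 385 against 765 CPM and 595 against 905 CPM.

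Rare lineages appeared in few selected cells. Cpa3, the mast cell carboxypeptidase, gave 451 UMIs in selected control cells, 266 of them in 4 mast cell-like cells and 164 in 22 cells of cluster 4. Itga2b, the platelet integrin CD41, gave 58 (control) and 21 (knockdown) UMIs, 45 and 13 of them in 16 and 4 cells of cluster 4. Hbb-bs, a beta globin, gave 22 UMIs in 1 selected knockdown cell and 0 in the selected control cells. Tcrg-C1, a T cell receptor gamma constant gene, gave 39 UMIs in cluster 4 of the control library, 37 of them in 1 cell. Whether single cells of this kind were doublets was not tested.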
